A study of Homo sapiens with 41 samples.

Results

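CTCF binding after 1 h of NaCl was set against CTCF binding after 7.5 min of NaCl in T47D cells, a human luminal breast cancer line. The comparison rests on 4 chromatin immunoprecipitation (ChIP-seq) libraries, replicates 1 and 2 at 1 h and replicates 1 and 2 at 7.5 min, chosen by their titles from one submission. A single CTCF library at 30 min, replicate 2, served as an unreplicated point between. These are 5 of the 41 samples of the series, of which 29 carry a peak list. All 5 libraries came from cells kept in steroid-free medium and then overnight without serum, so every group was hormone-depleted and held in G0/G1, and all 5 received 110 mM NaCl. None received triptolide. The unstressed libraries used for orientation came from the same hormone-depleted cells without NaCl. Whether replicates were separate cultures is not stated, so the spread between them may be technical. The series text gives the purpose as following CTCF on chromatin at 7.5, 30 and 60 min of hyperosmotic stress.

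CTCF is a zinc finger protein that binds a long, well conserved DNA motif and stops cohesin, the ring-shaped complex that extrudes chromatin loops and of which RAD21 is a subunit. Sites bound by both proteins mark loop anchors and domain borders, and CTCF also binds at many promoters. Raised NaCl outside the cell draws water out, shrinks the cell and raises its ionic strength, and cells respond through stress-activated MAP kinases and the transcription factor NFAT5, which drives genes for osmolyte uptake and synthesis.

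The lists held 35374 and 34205 CTCF peaks at 1 h, against 36962 and 31074 at 7.5 min, on chromosomes 1 to 22 and X. The means were 34790 ± 827 peaks at 1 h and 34018 ± 4163 at 7.5 min (SD, n = 2 each). The longest and the shortest of the 4 lists were both 7.5 min lists, and the 1 h lists lay between them. The log2 ratio of 1 h to 7.5 min was 0.04 (exact 2-sided permutation test over libraries, p = 1, where the smallest p of 2 libraries against 2 is 0.333). The single 30 min list held 26737 peaks. Peak lists give no read totals. The background pileup that the caller's values imply was 2.6 and 2.35 at 1 h, against 2.55 and 1.77 at 7.5 min, and 1.96 at 30 min. The list with the lowest background at 7.5 min was also the shortest there. Background and list length did not always go together. Unstressed replicate 2 had a background of 1.81 with 43835 peaks, and 1 h replicate 3 of a second submission had 3.48 with 22018. The part of sequencing depth in list length was not tested.

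**Figure D1:**
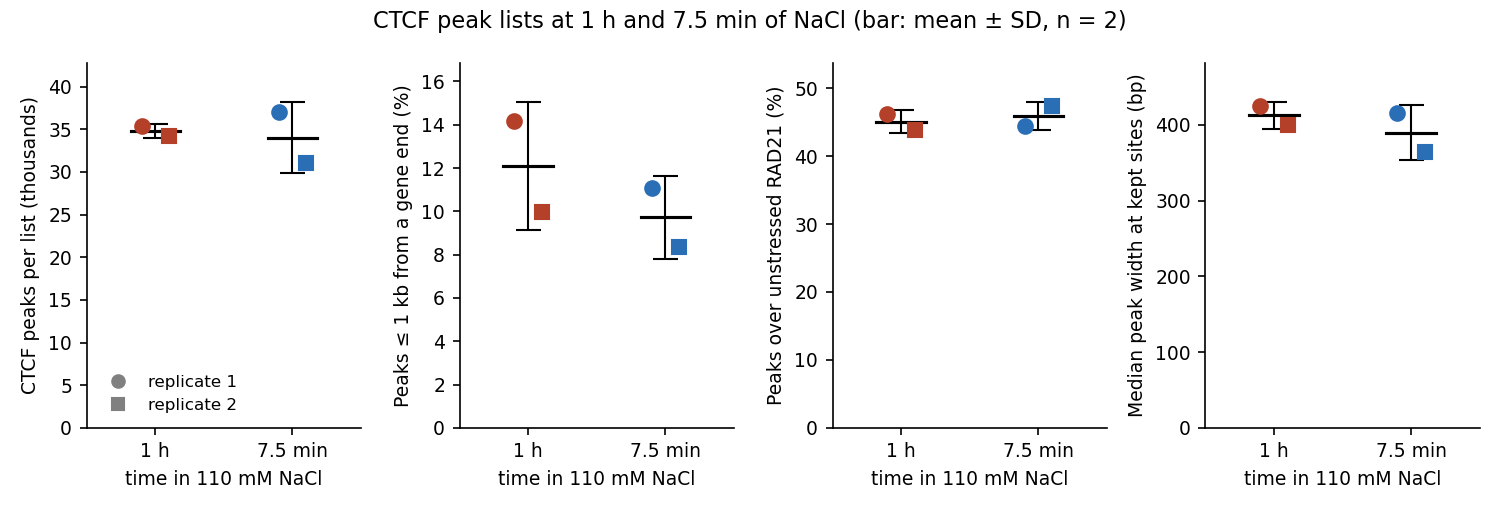
Number of CTCF peaks, share of peaks within 1 kb of a gene end, share of peaks overlapping an unstressed RAD21 peak, and median peak width in bp at kept sites, for the 1 h libraries (left, red) and the 7.5 min libraries (right, blue). Circles are replicate 1, squares replicate 2, and black bars the mean ± SD of 2 libraries. The 1 h and 7.5 min values overlap in each panel.

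The same peaks were largely present at both times. Of 1 h peaks, 81.2 to 89.5% overlapped a peak of a 7.5 min list, with a mean of 86.1% over the 4 pairs of libraries. Of 7.5 min peaks, 83.2 to 92.8% overlapped a peak of a 1 h list, with a mean of 88.6%. Replicates of one time overlapped by 79.0 to 94.4%, with a mean of 87.0%. The 1 h and 7.5 min lists therefore differed by no more than replicates of one time did. At the 26683 sites with one peak in each list, the summits of any pair of libraries lay a median of 9 to 10 bp apart, both between times and within them. Peaks at sites of all 4 lists had median widths of 425 and 400 bp at 1 h, against 416 and 364 bp at 7.5 min (exact permutation test, p = 0.667).

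Overlapping peaks of the 4 lists were merged into 43222 sites. Of these, 26993 (62.5%) were called in all 4 lists and are termed kept. Another 468 sites (1.08%) were called in both 1 h lists and in no 7.5 min list and are termed gained, and 784 sites (1.81%) were called in both 7.5 min lists and in no 1 h list and are termed lost. These names describe list membership and stand for no test. Several larger groups of sites followed single libraries. Sites called in 7.5 min replicate 1 alone numbered 2925, in 1 h replicate 1 alone 2359 and in 1 h replicate 2 alone 2018. Those called in 7.5 min replicate 2 alone were fewer, 517. Sites called in both replicate 1 lists and in no replicate 2 list numbered 1682, and 1963 were missing in 7.5 min replicate 2 alone.

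**Figure D2:**
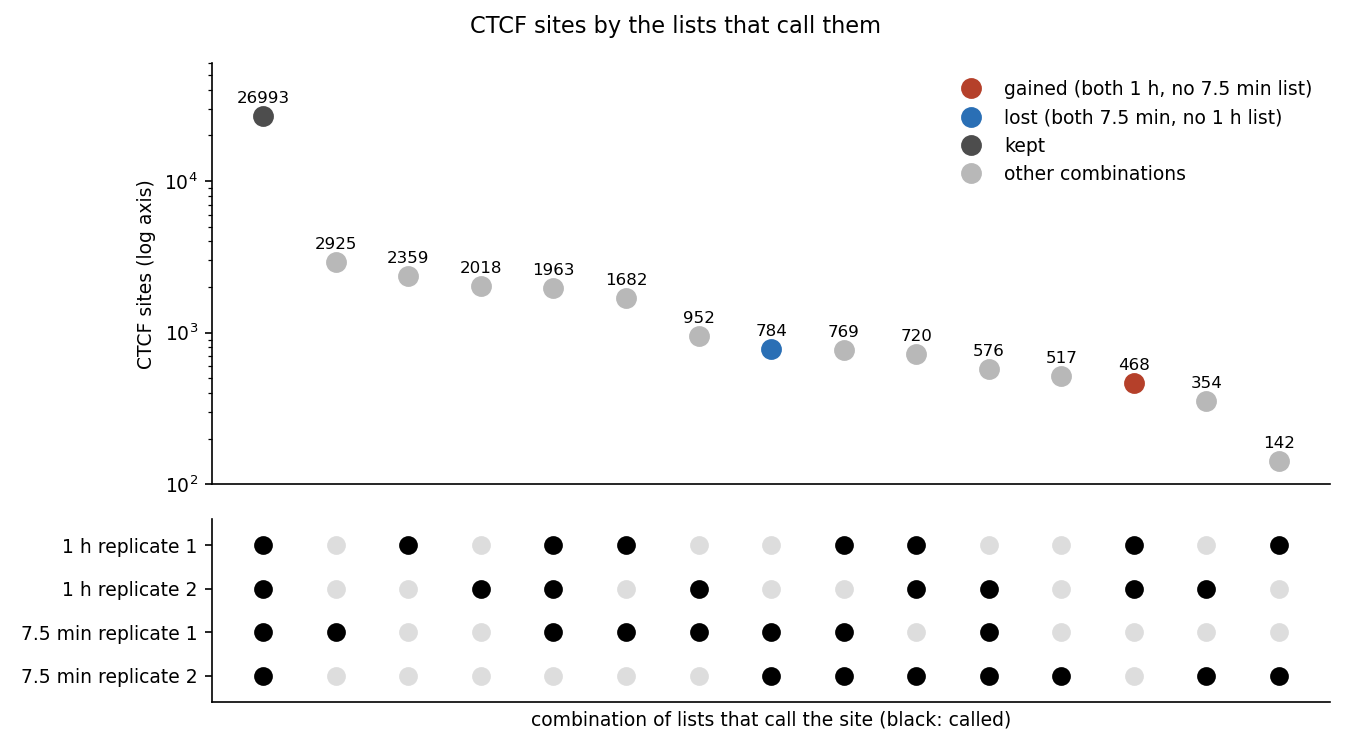
Number of CTCF sites (vertical log axis) for each combination of the 4 lists, with black dots below naming the lists that call the site. The 468 gained sites (red) and 784 lost sites (blue) are smaller groups than the 2925, 2359 and 2018 sites called in 7.5 min replicate 1, 1 h replicate 1 or 1 h replicate 2 alone (grey). Sites called in 7.5 min replicate 2 alone number 517, and the smallest combinations hold 354 and 142.

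Nearly all strong peaks were present at both times, while kept sites also included weak ones. When the peaks of each list were ranked by the authors' -log10 p and divided into quintiles, 98.3 to 100% of peaks in the 2 highest quintiles of every list overlapped the other time, averaged over its 2 lists. In the lowest quintile these shares were 51.3 and 48.7% for the 1 h lists, against 41.6 and 68.2% for the 7.5 min lists. Of the lowest-quintile peaks, 2055 of 7074 and 1692 of 6841 in the 1 h lists were in all 4 lists. In the 7.5 min lists these were 1313 of 7392 and 3003 of 6214. The strongest gene-end sites kept in all 4 lists lay at RFX7, BOC, ACTA2, FGF1, USP43, IL6ST, RNF145 and PI4K2A. At BOC, a co-receptor of Hedgehog ligands, the site at chr3:113287977-113288648 (hg38) had the authors' fold enrichment over background of 49.4 and 37.0 at 1 h, against 44.5 and 38.1 at 7.5 min. At IL6ST, the gp130 signalling receptor of the interleukin 6 family, the site at chr5:55935863-55936541 had 49.6 and 45.9 at 1 h, against 50.9 and 37.5 at 7.5 min. At ACTA2, smooth muscle actin, the site at chr10:88934714-88935860 had 44.7 and 54.1 at 1 h, against 41.4 and 45.3 at 7.5 min. Each of the 3 sites was also called at 30 min, in the 3 unstressed libraries and in unstressed RAD21. The fold of a peak belongs to its own list. Folds of the 2 times are printed side by side here and below, and their differences are not a measure of change between times.

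Gained and lost sites were weak and narrow. Gained sites had a median fold enrichment of 5.50 and 5.15 in the 1 h lists, where they stood at a median percentile of 10.3 and 13.6 of -log10 p, and a median peak width of 233 and 234.5 bp. Lost sites had a median fold enrichment of 6.09 in both 7.5 min lists, at a median percentile of 19.8 in replicate 1 and 8.49 in replicate 2, and a median width of 251.5 and 225 bp. No lost site was in the 2 highest quintiles of a 7.5 min list, and no gained site in those of a 1 h list. Both classes were spread over the genome. The share of a chromosome's sites that were gained was highest on chromosome 7 (34 of 2112) and lowest on chromosome 19 (11 of 1527), and the share lost was highest on chromosome 13 (32 of 964) and lowest on chromosome 22 (4 of 842). The median distance to the nearest kept site was 27.5 kb for gained sites and 41.4 kb for lost sites.

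DNA sequence was examined at gene starts, where the RefSeq table of GRCh38.p14 holds 250 bases before and 50 after each start. A core of the CTCF motif, CCA, any 2 bases, AG, any 2 bases and GGC, was searched on both strands. It was present in 558 of 22132 windows (2.52%), in 130 of 1189 windows overlapping a kept site (10.9%) and in 1.83% of windows with no site in the 4 lists. Of the 22 windows overlapping a gained site 1 held it, and the single window overlapping a lost site did not. At kept sites, 109 of 134 matches lay within 50 bp of the median summit, at a median distance of 13.75 bp. The windows below show the single gained match (TPBG, chr6:82363567-82363866, + strand), the strongest gained site without a match (AIRIM, chr1:37692193-37692492, - strand), the single lost window (RGS4, chr1:163069111-163069410, + strand) and the strongest kept windows with a match (ERMN, chr2:157327663-157327962, - strand, and NUTM1, chr15:34343065-34343364, + strand), each from 5′ to 3′ along its gene with the matched letters in capitals.
TPBG: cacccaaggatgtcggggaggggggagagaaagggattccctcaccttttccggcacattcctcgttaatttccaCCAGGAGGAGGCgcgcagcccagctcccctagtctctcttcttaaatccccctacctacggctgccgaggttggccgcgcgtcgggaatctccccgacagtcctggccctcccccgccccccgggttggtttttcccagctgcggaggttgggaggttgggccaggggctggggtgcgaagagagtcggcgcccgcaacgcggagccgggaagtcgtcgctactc
AIRIM: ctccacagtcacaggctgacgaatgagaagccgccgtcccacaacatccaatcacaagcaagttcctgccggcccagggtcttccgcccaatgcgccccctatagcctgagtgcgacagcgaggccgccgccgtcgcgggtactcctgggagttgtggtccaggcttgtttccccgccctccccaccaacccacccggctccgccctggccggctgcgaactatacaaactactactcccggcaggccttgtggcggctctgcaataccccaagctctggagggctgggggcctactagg
RGS4: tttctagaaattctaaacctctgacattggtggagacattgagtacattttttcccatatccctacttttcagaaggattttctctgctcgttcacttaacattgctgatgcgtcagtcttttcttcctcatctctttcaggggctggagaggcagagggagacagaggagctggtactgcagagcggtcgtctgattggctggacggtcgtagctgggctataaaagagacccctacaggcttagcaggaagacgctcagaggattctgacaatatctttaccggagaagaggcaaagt
ERMN: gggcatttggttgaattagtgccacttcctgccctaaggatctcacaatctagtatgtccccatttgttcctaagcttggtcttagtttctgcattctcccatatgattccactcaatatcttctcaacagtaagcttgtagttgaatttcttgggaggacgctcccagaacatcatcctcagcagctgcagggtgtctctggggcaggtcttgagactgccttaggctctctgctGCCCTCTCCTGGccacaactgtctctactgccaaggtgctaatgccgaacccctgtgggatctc
NUTM1: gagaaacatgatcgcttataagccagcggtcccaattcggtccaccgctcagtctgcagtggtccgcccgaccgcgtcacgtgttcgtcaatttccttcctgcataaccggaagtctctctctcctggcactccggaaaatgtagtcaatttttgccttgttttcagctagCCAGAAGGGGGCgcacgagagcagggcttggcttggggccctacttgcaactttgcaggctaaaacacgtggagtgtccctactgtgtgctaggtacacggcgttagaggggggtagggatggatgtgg

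TPBG encodes a trophoblast glycoprotein of the cell surface, and its match begins at position -175 from the gene's start. Its site, chr6:82363466-82363776, had a fold enrichment of 9.77 and 3.50 at 1 h and was called in unstressed RAD21. RGS4 encodes a regulator that shortens G protein signalling, and its site had a fold enrichment of 4.18 and 5.08 at 7.5 min. ERMN, an actin-binding protein of oligodendrocytes, had 53.4 and 41.0 at 1 h, against 48.4 and 34.9 at 7.5 min, and its match reads on the strand opposite the gene. NUTM1, a gene of testis, had 34.6 and 22.9 at 1 h, against 36.3 and 23.99 at 7.5 min. The search gives no reading of the distal sites, whose sequence was not used here.

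Lost sites lay at gene ends and starts less often than gained, kept or all sites, and gained sites lay near the share over all sites. Of gained sites, 58 of 468 (12.4%, exact 95% interval 9.55 to 15.7%) lay within 1 kb of either end of a protein-coding gene, against 14 of 784 lost sites (1.79%, 0.980 to 2.98%), 9.65% of kept sites and 12.1% of all sites. The intervals cover counting error only. At gene starts these shares were 9.83% of gained, 0.383% of lost, 5.79% of kept and 8.54% of all sites. Of sites called in 1 to 3 of the 4 lists, 16.1% lay at gene ends and 13.1% at gene starts. Lost sites lay between genes in 59.2% of cases and inside gene bodies in 39.0%, and gained sites in 42.3% and 45.3%. The difference moved with single libraries: lost minus gained was -10.6 percentage points, -0.392 without 1 h replicate 1, -2.73 without 7.5 min replicate 2, -31.2 without 7.5 min replicate 1 and -35.5 without 1 h replicate 2. In whole lists the gene-end share was 14.2 and 9.98% at 1 h, against 11.1 and 8.37% at 7.5 min. The 2 times overlapped, with a difference of 2.37 percentage points (exact permutation test, p = 0.667). The smallest p of this test is 0.333, so it could not have passed 0.05.

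Among the 5225 sites at gene ends, 1.11% were gained, 0.268% lost and 49.9% kept. The strongest gained gene-end sites lay at ZNF70, SFPQ, LOC124902211, SRP54, CTDSPL2, FREM2, CDCA8 with its neighbour AIRIM, and JAG2. At ZNF70, a zinc finger gene, the site at chr22:23750693-23751025 had a fold enrichment of 13.4 and 6.14 at 1 h. At SFPQ, a paraspeckle and splicing protein, the site at chr1:35191967-35192340 had 8.61 and 4.74. At CDCA8, a subunit of the chromosomal passenger complex that guides chromosome segregation, the site at chr1:37692255-37692510 had 7.47 and 4.27. JAG2 encodes a Notch ligand, and its site at chr14:105169028-105169497 had 7.50 and 3.46. These 4 sites and that of LOC124902211 were called in unstressed replicates 1 and 3, in 1 h replicate 3 and in isotonic recovery, and were absent from unstressed replicate 2 and from the 30 min list. The 3 others lay at SRP54 (a signal recognition particle subunit), CTDSPL2 (a phosphatase) and FREM2 (a basement membrane protein). These were called in unstressed replicates 1 and 2, but not in unstressed replicate 3, 1 h replicate 3 or isotonic recovery. The CTDSPL2 site was also called at 30 min. Of all 58 gained gene-end sites, 57 (98.3%) were called in unstressed replicate 1, 33 (56.9%) in unstressed replicate 2 and 2 (3.45%) at 30 min. For kept gene-end sites these shares were 100, 99.5 and 88.9%. The 25 gained gene-end sites not called in unstressed replicate 2 were thus absent from a library that received no NaCl.

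The strongest lost gene-end sites lay at TGFBI, HVCN1, ZNF774, LMNB1, CENPL, IFNB1, AGO4 and IL2. At TGFBI, an extracellular matrix protein induced by TGF beta, the site at chr5:136062622-136062988 had a fold enrichment of 7.20 and 12.2 at 7.5 min and lay 33797 bp from the gene's start. HVCN1 encodes a voltage-gated proton channel, and its site at chr12:110704769-110705084 had 5.03 and 13.0. At LMNB1, lamin B1 of the nuclear lamina, the site at chr5:126837976-126838264 had 9.60 and 6.95 and lay 60966 bp from the start. IFNB1 and IL2 encode interferon beta and interleukin 2, and their sites had 5.13 and 6.52, and 9.78 and 6.09. All 8 were called in unstressed replicates 1 and 2 and none in 1 h replicate 3. TGFBI was the one called at 30 min.

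Over all sites, wherever they lay, the strongest gained ones lay in DCUN1D2 and FPGS and in an interval of chromosome 5 between genes, and the strongest lost ones in MYO16 and KLHL6 and at TGFBI. In MYO16, an unconventional myosin, the site at chr13:109135068-109135403 had a fold enrichment of 14.4 and 14.7 at 7.5 min and lay 505608 bp from the start. In KLHL6, an adaptor of a ubiquitin ligase, the site at chr3:183502787-183503130 had 9.78 and 11.5. DSCAM, a neuronal adhesion gene of 836 kb, was the single protein-coding gene that held 3 or more gained or 3 or more lost sites in its body. Of its 9 sites 3 were lost, none of these with unstressed RAD21, and 5 were kept.

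Most gained and lost sites were called in unstressed replicates 1 and 2, and fewer of them in unstressed replicate 3 of the second submission. Of gained sites, 93.2% were called in unstressed replicate 1 and 76.5% in unstressed replicate 2, against 97.6 and 97.2% of lost, 99.9 and 99.8% of kept and 88.7 and 82.4% of all sites. Both of these libraries called 352 gained sites (75.2%) and 757 lost sites (96.6%), against 99.7% of kept and 81.4% of all sites. Gained sites thus lay below the share over all sites, of which 62.5% were kept. Of sites called in 1 to 3 of the 4 lists, both libraries called 50.8%, and gained sites lay above that share. In neither were 26 gained sites (5.56%) and 14 lost sites (1.79%), against 10.3% of all sites. Unstressed replicate 3 called 20.5% of gained and 35.3% of lost sites, against 79.7% of kept and 64.4% of all sites. In 1 h replicate 3 of the second submission, 38 gained sites (8.12%, 5.81 to 10.97%) and 1 lost site (0.128%, 0.00323 to 0.709%) were called, against 52.5% of kept and 40.3% of all sites. That list held 22018 peaks, against 35374 and 34205 in the 1 h lists of the first submission. It called 31.6% of the sites found in 1 h replicate 1 alone and 5.40% of those found in 1 h replicate 2 alone. After 1 h of NaCl followed by isotonic recovery, also of the second submission, 41.0% of gained, 57.9% of lost, 91.4% of kept and 75.5% of all sites were called. Of sites called in 1 to 3 of the 4 lists, unstressed replicate 3 called 39.0%, 1 h replicate 3 20.1% and isotonic recovery 49.2%.

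**Figure D3:**
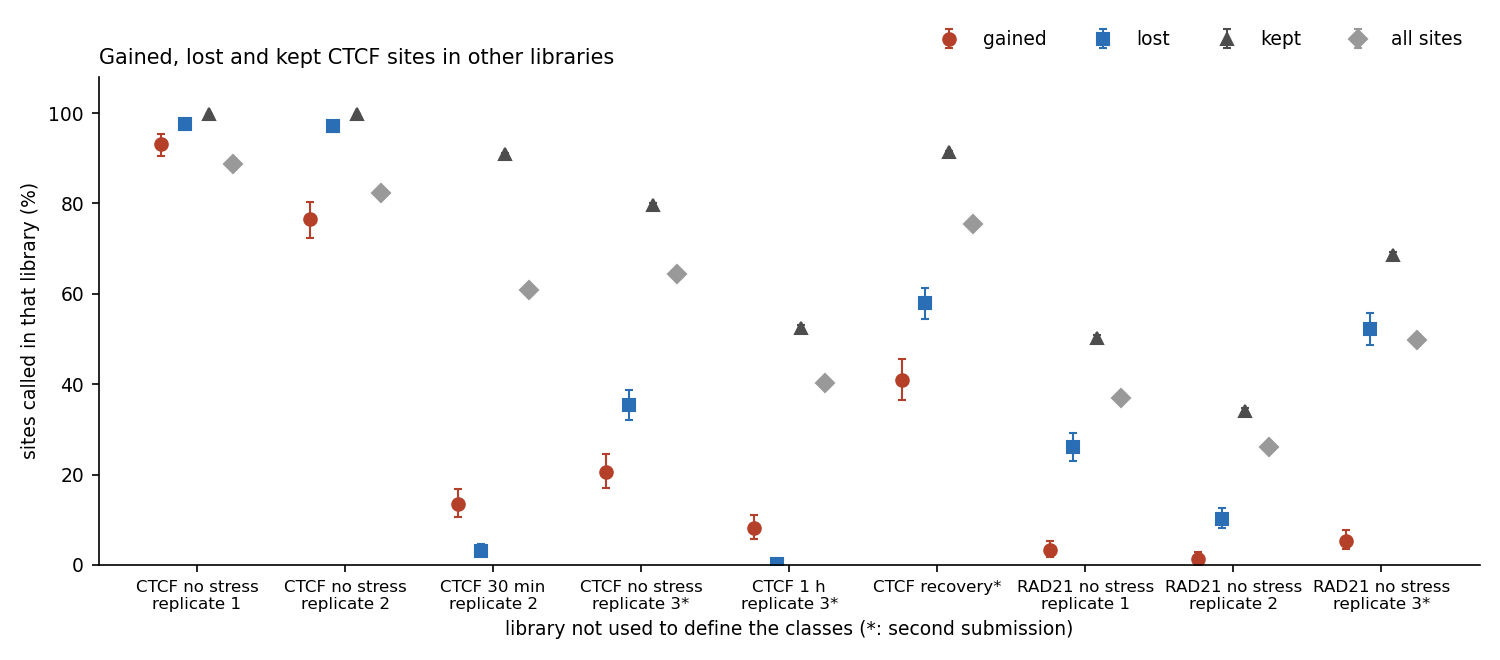
Share of gained (red), lost (blue), kept (black) and all (grey) sites called in each library that did not define the classes, with exact 95% intervals for counting error. Lost sites are called at 97.6, 97.2 and 35.3% in unstressed replicates 1, 2 and 3, at 3.19% at 30 min and at 0.128% in 1 h replicate 3. Gained sites are called at 93.2, 76.5 and 20.5% in unstressed replicates 1, 2 and 3, at 13.5% at 30 min and at 8.12% in 1 h replicate 3.

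The 30 min list called 63 gained sites (13.5%, 10.5 to 16.9%) and 25 lost sites (3.19%, 2.07 to 4.67%), against 90.9% of kept and 60.8% of all sites. Of sites called in 1 to 3 of the 4 lists it called 10.8%. The gained and lost shares depended on the libraries that set the classes. Without 7.5 min replicate 2, 51.1% of 1189 gained and 1.40% of 3718 lost sites were called at 30 min. Without 1 h replicate 2, the shares were 4.58% of gained and 15.7% of lost sites, so the order of the classes turned. With 1 h replicate 3 added the shares were 2.5% of 40 gained and 3.19% of 783 lost sites, too few gained sites to order the classes. Sites missing in a single list showed the same dependence. Of those missing in 1 h replicate 2 alone 8.71% were called at 30 min, and of those missing in 7.5 min replicate 2 alone 10.4%. Of those missing in 1 h replicate 1 alone 33.0% were called at 30 min, and of those missing in 7.5 min replicate 1 alone 75.6%. The 30 min list, itself replicate 2, thus shared its absences more with the replicate 2 list of either time than with the lists of one time.

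In replicate 2, the only replicate with all 3 times, 36651 sites were followed from 7.5 min over 30 min to 1 h. Present at all 3 times were 25415 sites (69.3%). The next group, 4884 sites (13.3%), was called at 1 h alone. Of these, 42.5% were called in both unstressed libraries, against 89.7% of all 36651 sites. Called at 7.5 min and 1 h but not at 30 min were 3275 sites (8.94%), of which 95.1% were called in both unstressed libraries. Called at 7.5 min alone were 2006 sites (5.47%), of which 93.9% were called in both unstressed libraries. Only 213 sites were called at 7.5 and 30 min and not at 1 h, 581 at 30 min and 1 h and not at 7.5 min, and 277 at 30 min alone. Each time is 1 library here, and the 30 min list is the shortest.

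Lost sites overlapped unstressed cohesin more often than gained sites, with a strong dependence on the library. RAD21 peaks of unstressed replicates 1 and 2, pooled, overlapped 18 gained sites (3.85%, 2.30 to 6.01%) and 220 lost sites (28.1%, 24.9 to 31.3%), against 52.0% of kept and 39.3% of all sites. RAD21 of unstressed replicate 3, from the second submission, overlapped 5.34% of gained, 52.3% of lost, 68.7% of kept and 49.8% of all sites. Of sites called in 1 to 3 of the 4 lists, 18.1% overlapped the pooled peaks and 18.3% those of replicate 3. Lost minus gained was 24.2 percentage points with the pooled RAD21 peaks and 46.95 with replicate 3. It was -15.0 without 7.5 min replicate 1, 3.39 without 1 h replicate 2, 10.8 without 7.5 min replicate 2 and 32.1 without 1 h replicate 1. The direction thus turned when 7.5 min replicate 1 was left out. With RAD21 of replicate 3 it did not turn: gained and lost sites overlapped it in 22.8 and 37.0% of cases without 7.5 min replicate 1, in 14.5 and 23.4% without 7.5 min replicate 2, in 2.37 and 53.99% without 1 h replicate 1, and in 8.17 and 42.2% without 1 h replicate 2. Away from gene ends, 2.195% of gained, 28.2% of lost, 50.9% of kept and 37.5% of all sites overlapped the pooled RAD21 peaks. RAD21 after 1 h of NaCl overlapped 1 gained site (0.214%) and 1 lost site (0.128%). It overlapped 27.3% of kept sites, 18.2% of all sites and 3.19% of sites called in 1 to 3 of the 4 lists.

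Single pairs of libraries showed the same dependence. With the pooled RAD21 peaks, 14.3% of sites found only in 1 h replicate 1 and 11.1% of those found only in 7.5 min replicate 1 overlapped RAD21. Against 7.5 min replicate 2, 1 h replicate 1 gave 30.1% for its own sites and 14.4% for those of 7.5 min. For 1 h replicate 2 the shares were 1.37% of 1 h sites and 23.9% of 7.5 min sites in the pair with replicate 1, and 15.5% and 24.6% in the pair with replicate 2. With RAD21 of unstressed replicate 3 the share was lower for the 1 h sites in all 4 pairs, 10.9 against 19.9%, 17.7 against 30.2%, 6.59 against 27.8% and 11.5 against 42.3% in the same order. The 4 pairs share libraries and are not independent. Gene-end shares also differed by pair. Of sites found only in 1 h replicate 1 against 7.5 min replicates 1 and 2, 28.7 and 35.9% lay at gene ends, against 2.68 and 1.59% of the 7.5 min sites. For 1 h replicate 2 these shares were 3.02% of 1 h sites and 12.3% of 7.5 min sites in the pair with replicate 1, and 15.5% and 2.48% in the pair with replicate 2. In whole lists, unstressed RAD21 overlapped 46.2 and 43.9% of 1 h peaks, against 44.5 and 47.3% of 7.5 min peaks, a difference of -0.848 percentage points (exact permutation test, p = 0.667).

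**Figure D4:**
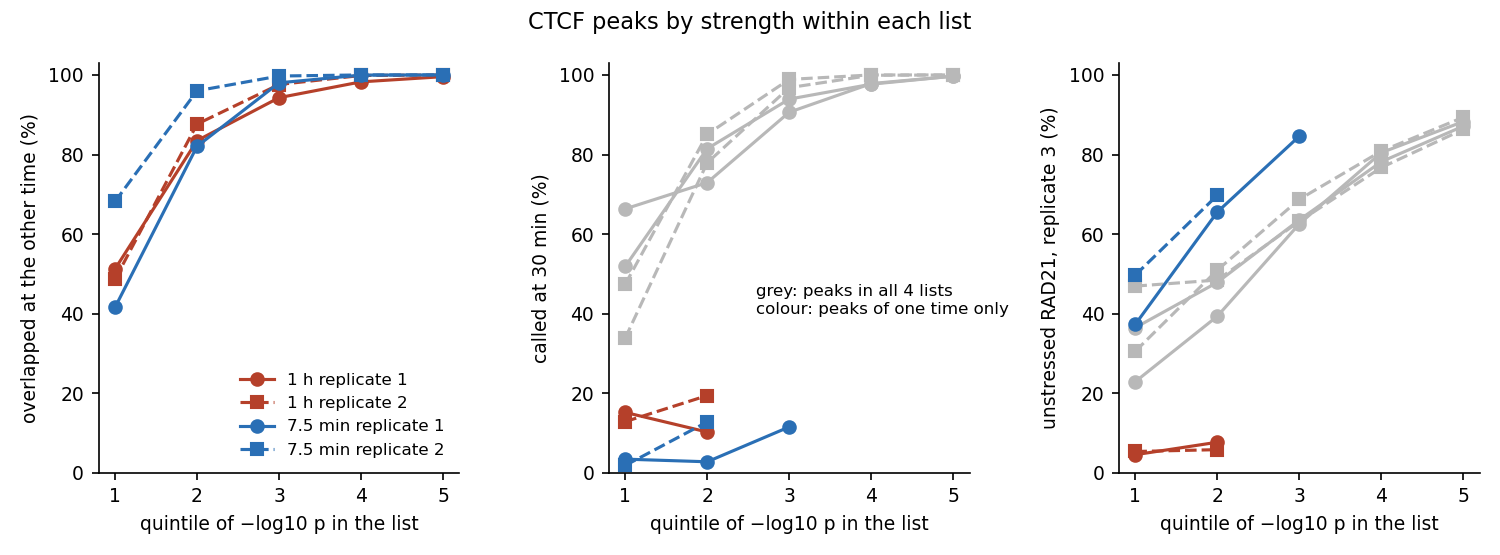
CTCF peaks of each list in quintiles of the authors' -log10 p (1 is weakest; only strata of at least 20 peaks are drawn), for the 1 h (red) and 7.5 min (blue) lists, replicate 1 as circles and replicate 2 as squares. The left panel gives the mean share overlapped in the 2 lists of the other time, and the others the share called at 30 min or in RAD21 of unstressed replicate 3, for peaks in all 4 lists (grey) and of one time only (colour). Peaks in all 4 lists were chosen for being called widely. In the lowest quintile RAD21 of replicate 3 overlaps 37.3 and 49.7% of peaks found at 7.5 min alone.

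Within quintiles of rank the RAD21 shares were as follows. Peaks in all 4 lists are by their choice those that other lists also call, so equal rank in one list does not make them alike in strength, and the values are a description. In the lowest quintile of 7.5 min replicate 1, unstressed RAD21 (replicates 1 and 2) overlapped 17.9% of peaks found at 7.5 min alone and 4.95% of those in all 4 lists, and in the next quintile 36.4 and 15.2%. In 7.5 min replicate 2 the shares were 26.1 and 21.3%, then 40.7 and 36.3%. In the lowest quintile of the 1 h lists, peaks found at 1 h alone overlapped RAD21 in 2.28% of cases in replicate 1 and 4.02% in replicate 2, against 15.3 and 27.0% of those in all 4 lists.

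Gene lists drawn up for osmostress, CTCF-rich loci and cell identity held 435 genes, with 199 CTCF sites within 1 kb of an end. Of these sites 120 (60.3%) were kept, against 49.9% of all gene-end sites, and 33 of the 120 lay at protocadherins. Gained were 2 and lost 0, where 1.11% of all gene-end sites were gained and 0.268% lost, so neither count stood apart from all gene-end sites. The gained ones lay at JUN and VIM. JUN encodes an AP-1 subunit of the immediate early response, and its site at chr1:58781783-58782072 had a fold enrichment of 9.51 and 4.06 at 1 h. VIM encodes vimentin, an intermediate filament of mesenchymal cells, and its site at chr10:17227240-17227602 had 8.70 and 4.22. Both were called in unstressed replicate 1 and absent from unstressed replicate 2, from 30 min and from 1 h replicate 3.

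The clustered protocadherins, neuronal adhesion genes whose promoters are chosen through CTCF, kept 33 of 35 sites, and the HOX clusters, developmental regulators with CTCF borders, kept 8 of 9. At HOXA10 the kept site at chr7:27179533-27180190, 54 bp from the gene's start and also within 1 kb of an end of HOXA11, had a fold enrichment of 27.1 and 10.2 at 1 h, against 10.2 and 7.02 at 7.5 min. Genes for cohesin, CTCF and loop factors kept 10 of 16 sites, including those of STAG1, STAG2, PDS5A and PDS5B, and cytosolic ribosomal protein genes kept 23 of 37. At CTCFL, the testis paralogue of CTCF, the kept site at chr20:57495113-57495752 had 41.0 and 42.6 at 1 h, against 29.9 and 41.9 at 7.5 min.

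Immediate early and MAP kinase genes kept 8 of 17 sites. EGR1, an early growth response factor, had a kept site at chr5:138463964-138464724 with a fold enrichment of 20.9 and 9.79 at 1 h, against 21.0 and 3.75 at 7.5 min. The sites of IER2 and KLF2, and 1 of 2 sites each at DUSP1 and JUND, were missing in 7.5 min replicate 2 alone, and those of FOSL2, IER3 and DUSP4 in both replicate 2 lists. Genes of the osmolyte and NFAT5 pathway kept 4 of 9 sites, among them those of WNK1, a kinase of cell volume control, and SLC12A4, a potassium and chloride carrier, while SLC6A6, the taurine carrier, and SLC12A2, a sodium, potassium and chloride carrier, each had a site in 1 h replicate 1 alone. SLC5A3, the myo-inositol carrier, had 1 site in 1 h replicate 1 alone and 1 in both replicate 1 lists. Luminal breast genes kept 6 of 12 sites, among them FOXA1, ELF3, KRT18 and MUC1. Oestrogen and progesterone targets kept 1 of 5 and heat shock chaperones 1 of 4. CTCF sites do not mark a cell type, so the lists of blood, fibroblast, endothelial, neuronal and muscle genes are no check of the cells; they kept 3 of 5, 2 of 3 and 2 of 5 sites.

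**Figure D5:**
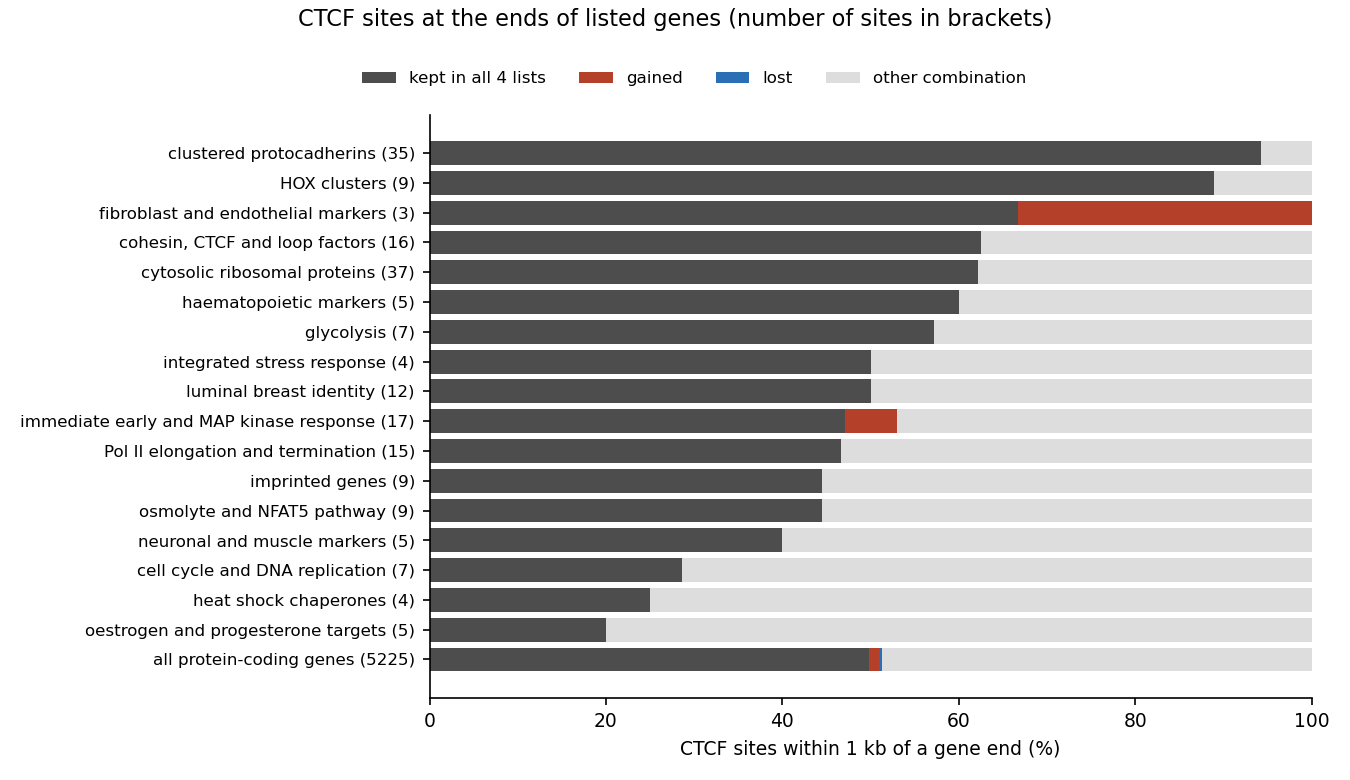
CTCF sites within 1 kb of the ends of listed genes, as the percentage kept in all 4 lists (dark), gained (red), lost (blue) or called in another combination of lists (pale), with the number of sites in brackets. Protocadherins and HOX clusters keep 33 of 35 and 8 of 9 sites, and among the listed genes gained sites appear only at JUN and VIM.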

How the data were processed

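Per the submitters' processing notes, reads were handled with cutadapt, Bowtie2 version 2.2.6 and MACS2 on build hg38; DiffBind version 2.4.6, DESeq2 and HOMER are also named, what each tool did, the threshold and the control being not given in the sources used here. The authors called peaks in each library separately. Each deposited peak has a fold enrichment (the ratio of its signal over the caller's background), a -log10 p and -log10 q, and a score. These are the authors' values, and served for ranking, filtering and description inside one list. Folds of different lists are printed side by side without a test.

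Lists on chromosomes 1 to 22 and X were compared in Python 3.11.15 (scipy 1.17.1, numpy 2.4.6, pandas 2.3.3). Peaks overlapping by 1 bp were merged into sites, and the step was tested on simulated lists. Library values were compared with exact 2-sided permutation tests at 0.05, which 2 libraries against 2 cannot reach (smallest p 0.333). Shares carry exact Clopper-Pearson 95% intervals. A gene end is either end of one of 19974 protein-coding genes of RefSeq GRCh38.p14, a build the lists name only as hg38, and sequences come from the same release. The background pileup is the most common Poisson background that solves a list's fold and -log10 p values (2.93 to 4.65% of peaks in the 5 lists), so it is a rough guide to depth.

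Groups follow the titles. The 30 min library is replicate 2 in its title and replicate 1 in its tag, and the series text gives a NaCl concentration slightly below the 110 mM of the titles. Replicate 3 comes from a second submission without a 7.5 min library. Pre-treatment tags of that submission contradict some of its titles. The titles of replicate 3 and of the recovery library used here name no triptolide, and these libraries serve for orientation only. Named sites are the 8 per class at gene ends with the highest percentile of -log10 p in the list where they rank lowest, and list members with a gained or lost site. Other genes were named after their values were seen. The members and lists were chosen with earlier results of these data known. No lists were identical (0 pairs).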

Additional observations from a re-analysis of the deposited data

How the results depend on the processing

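Requiring -log10 q or fold enrichment of at least 5, keeping equal list lengths, or joining peaks by summits within 150 bp left 329 to 494 gained, 752 to 947 lost and 23247 to 28958 kept sites (kept also over the settings that leave out a library). Leaving out 1 library in turn gave 1189 to 2839 gained and 1307 to 3718 lost sites, where 3 lists in place of 4 set the class, a log2 ratio of peak number from -0.0876 to 0.163, and a difference in RAD21 share from -2.29 to 0.595 percentage points. With 1 h replicate 3 added, gained sites numbered 40 and kept sites 14161, the log2 ratio was -0.182 and the RAD21 difference 2.69. At fold enrichment of at least 5 the RAD21 difference was 0.386. The exact permutation tests cannot judge these differences, since with so few libraries none could reach 0.05. The share of lost sites called at 30 min was 5.15% at fold enrichment of at least 5, 6.02% at equal list length and 1.40 to 15.7% with 1 library left out. Unstressed RAD21 at lost minus gained sites ranged from -15.0 (without 7.5 min replicate 1) to 32.1 percentage points with 1 library left out. The cause of these shifts was not tested beyond their construction. Across all sites same-numbered libraries deviated together only weakly (r = 0.0926), and the main tests did not take the numbers as pairs. Yet 1682 sites were called in the replicate 1 lists alone and 354 in the replicate 2 lists alone. Against these, 952 were called in 1 h replicate 2 and 7.5 min replicate 1 alone, and 142 in the opposite pair. A shared replicate effect was not tested. With a replicate block the log2 ratio stayed 0.0376 (exact sign-flip permutation p = 1), the gene-end difference 2.37 (exact permutation p = 0.5, the smallest for 2 pairs) and the RAD21 difference -0.848 (exact permutation p = 1). Gained and lost sites rank low in their lists, and the lists give no reads where no peak was called, which limits the comparison.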

Other observations

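Some sites that followed single libraries were clustered. Of the 952 sites called in 1 h replicate 2 and 7.5 min replicate 1 alone, 23.1% lay on chromosome 10, which holds 6.19% of all sites, and 12.6% on chromosome 20, which holds 4.02%. Of these sites 53.6% lay within 10 kb of another site of the same combination, 91.9% lay between genes and 15.2% were called in both unstressed libraries. Of the 2018 sites called in 1 h replicate 2 alone, 17.2% lay on chromosome 6, which holds 5.97% of all sites, and 48.5% lay within 10 kb of another such site. Among gained and lost sites 0.855 and 1.79% had a neighbour of their own class within 10 kb. This share was 28.8% of kept sites, 33.3% of sites in 7.5 min replicate 1 alone and 10.0% of those in 1 h replicate 1 alone. For sites missing in 1 h replicate 2 alone it was 1.04%. These shares were not adjusted for the number of sites in a group.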
